A study of Mus musculus with 2 samples.

Results

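The genes described here are 10 genes that mark tendon and cartilage cells, namely Scx, Sox9, Mkx, Tnmd, Comp, Prg4, Cilp, Thbs4, Angptl7 and Fibin, and the cells are fibroblasts of the mouse mitral valve. They are 10 of the 32285 features in each count matrix, were found by their symbols, and were selected on measured values, because their levels in these valve fibroblasts and their differences between the libraries had been seen. Their levels and ratios are therefore a description and carry no test. The series holds 1 single-cell RNA-Seq library from WT mice and 1 from mgR mice, and the methods of the study place both at 12 weeks of age on a C57BL/6J background. WT mice are Fbn1+/+ littermates, and mgR mice are homozygous for the mgR allele of Fbn1, a hypomorphic insertion that lowers fibrillin-1, the microfibril protein of Marfan syndrome, in every tissue and not in fibroblasts alone. Cells were freed from the leaflets with collagenase and elastase, and viable ones were sorted. The labels do not give the number of mice per library.

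Tendons, cartilage and heart valve leaflets are all made of fibrous matrix that bears load, and developing valves are known to use regulators that also build tendon and cartilage. Scx (scleraxis) is a basic helix-loop-helix transcription factor that marks tendon progenitors and binds E-box sequences. Sox9 is the transcription factor needed for cartilage formation, and both are known from developing valve leaflets. Below these regulators stand secreted products, among them Comp and Thbs4, the thrombospondin family members of cartilage and tendon, Prg4 (lubricin), the lubricant of joint and tendon surfaces, and Cilp, a protein of the cartilage interlayer. Mkx and Tnmd mark the mature tendon, Mkx as a homeobox transcription factor and Tnmd as a membrane protein of tendon cells.

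Fibroblasts were taken as kept cells with at least 10 unique molecular identifiers (UMIs, each standing for 1 captured RNA molecule) summed over Col1a2, Col3a1 and Dcn. This gate held 353 of 875 kept WT cells and 1209 of 3438 kept mgR cells, and no barcode was shared between the kept cells of the 2 libraries. The gated cells had a median of 5255 UMIs in WT and 6557 UMIs in mgR. The label was checked by clustering all cells without the 10 genes. Of the gated cells, 330 WT cells (93.5%) and 897 mgR cells (74.2%) lay in clusters with fibroblast markers, whereas 23 WT cells (6.52%) and 292 mgR cells (24.2%) lay in endothelium-like clusters. All 9 endothelium markers were detected among the gated cells of both libraries, and their summed level was 319 counts per 1000000 UMIs (CPM) in WT and 936 CPM in mgR. In the gated cells of fibroblast-like clusters the same sum was 52.9 CPM in WT and 39.2 CPM in mgR. Levels and ratios are therefore given for all gated cells and for the gated cells in fibroblast-like clusters, which are called clustered fibroblasts.

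Cells just inside and just outside the gate carried few UMIs of the 10 genes. With 5 to 9 gate UMIs there were 19 WT and 80 mgR cells, with the 10 genes summing to 39.1 and 54.5 CPM. With 10 to 14 gate UMIs there were 11 WT and 55 mgR cells, with sums of 1089 and 177 CPM, and 41 of these 55 mgR cells were endothelium-like.

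The libraries also differed in the sex of the cells. Among the clustered fibroblasts, 83 of 330 WT cells (25.2%) had Xist and no Y-linked UMIs and 145 (43.9%) had Y-linked and no Xist UMIs. In mgR the counts were 539 of 897 cells (60.1%) with Xist and 213 (23.7%) with Y-linked UMIs. Both libraries thus held cells of both sexes, although the methods of the study describe male mice for its experimental comparisons. Fbn1, the targeted gene, measured 165 CPM in gated WT cells and 115 CPM in gated mgR cells, a ratio of 0.698 (95% interval 0.614–0.795). It was measured in all gated cells only, so the part of the endothelium-like cells in this ratio was not tested. All intervals in parentheses are 95% intervals, exact Poisson for levels, Clopper-Pearson for shares and conditional binomial for ratios, and they cover counting error only. With 1 library per genotype no difference has a replicate check.

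The 250 bases before the RefSeq starts of Angptl7, Cilp and Thbs4 are shown, since Cilp was detected in the same fibroblasts as Angptl7 and Thbs4 was the gene with the lowest ratio. They run 5′ to 3′ on the coding strand and are RefSeq sequence of build GRCm38.p6, and none of the 3 windows holds an annotated exon. Capitals mark E-boxes (CANNTG) and the SOX core AACAAT or its reverse complement ATTGTT.
Angptl7, chr4:148500463-148500712, minus strand: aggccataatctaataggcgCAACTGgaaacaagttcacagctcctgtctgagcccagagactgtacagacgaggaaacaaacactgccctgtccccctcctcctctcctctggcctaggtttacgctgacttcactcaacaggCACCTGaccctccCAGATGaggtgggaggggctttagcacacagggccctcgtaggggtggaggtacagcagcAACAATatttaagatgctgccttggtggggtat
Cilp, chr9:65264930-65265179, plus strand: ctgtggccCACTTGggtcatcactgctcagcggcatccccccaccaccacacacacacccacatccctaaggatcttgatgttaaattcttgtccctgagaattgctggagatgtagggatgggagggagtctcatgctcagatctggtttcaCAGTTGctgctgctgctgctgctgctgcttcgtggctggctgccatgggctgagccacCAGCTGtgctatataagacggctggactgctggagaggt
Thbs4, chr13:92794819-92795068, minus strand: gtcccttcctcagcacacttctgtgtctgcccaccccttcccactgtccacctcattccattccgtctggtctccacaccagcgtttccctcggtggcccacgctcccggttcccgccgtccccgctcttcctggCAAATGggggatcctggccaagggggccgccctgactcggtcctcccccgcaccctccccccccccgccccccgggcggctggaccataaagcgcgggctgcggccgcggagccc
Angptl7 holds 3 E-boxes, reading CAACTG then CACCTG then CAGATG, and 1 SOX core in these 250 bases. Cilp holds 3 E-boxes, Thbs4 holds 1, and neither holds the SOX core. Of 32851 upstream windows of the same length, 66.2% hold an E-box, 14.4% hold CATCTG or its reverse complement CAGATG, which is itself an E-box, and 9.42% hold the SOX core, with both strands searched. A match describes these letters and not a bound site. Upstream sequence was matched for 5 of the 10 genes, of which Fibin and Tnmd are not printed because their windows reach 190 and 28 bases into the annotated gene.

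Among the transcription factors, Scx (chr15:76457452-76459458, plus strand, GRCm38) was a gene of few cells. It gave 73 UMIs in 40 of 353 gated WT cells and 457 UMIs in 196 of 1209 gated mgR cells. The level was 38.7 CPM (30.3–48.6) in WT and 52.9 CPM (48.2–58.0) in mgR. In the clustered fibroblasts it was 41.6 CPM (32.6–52.3) in WT and 69.0 CPM (62.7–75.7) in mgR. Scx was thus the higher of the 2 in mgR, with a ratio of 1.37 (1.07–1.78) in all gated cells and 1.66 (1.29–2.16) in clustered fibroblasts, where the 2 intervals of the level did not overlap. No cell held more than 14 UMIs.

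Scx lies wholly inside Bop1, a gene on the opposite strand, with no shared exon. Bop1 measured 18.3 CPM (5.93–42.6) in WT clustered fibroblasts with a Scx UMI and 12.1 CPM (7.19–19.2) in those without. In mgR the values were 17.1 CPM (11.4–24.7) with and 13.1 CPM (10.1–16.7) without. The intervals overlapped in both libraries, so the host gene did not differ beyond counting error between cells with and without Scx.

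Sox9 (chr11:112782224-112787760, plus strand) was found in far more cells than Scx. It gave 466 UMIs in 173 gated WT cells (49.0%) and 1480 UMIs in 527 gated mgR cells (43.6%). The level was 247 CPM (225–270) in WT and 171 CPM (163–180) in mgR, a ratio of 0.694 (0.625–0.772). In clustered fibroblasts it was 263 CPM (240–288) and 226 CPM (215–238), a ratio of 0.860 (0.774–0.957). The endothelium-like cells of the mgR gate had 2.65 CPM of Sox9. After splitting by sex the ratio in clustered fibroblasts was 0.884 (0.733–1.07) in Xist cells and 1.04 (0.872–1.26) in Y-linked cells. Neither value departed from 1 beyond counting error.

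The markers of the mature tendon were close to absent. Tnmd (chrX:133850980-133865577, plus strand) had 0 UMIs in all 875 kept WT cells and all 3438 kept mgR cells. By the limit of 3 counts, at most 0.343% of WT and 0.0873% of mgR cells could hold a UMI. Mkx had 2 UMIs in gated WT cells and 16 UMIs in gated mgR cells, that is 1.06 CPM (0.128–3.83) and 1.85 CPM (1.06–3.01). No difference in Mkx was detectable at this depth.

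Of the matrix proteins, Comp (chr8:70373558-70382066, plus strand) was higher in mgR. It gave 824 UMIs in 107 gated WT cells and 5679 UMIs in 447 gated mgR cells, with up to 63 UMIs in 1 WT cell and up to 131 UMIs in 1 mgR cell. Its level was 437 CPM (407–467) in WT and 657 CPM (640–675) in mgR, and in clustered fibroblasts 464 CPM (433–497) and 864 CPM (842–887). The ratio was 1.51 (1.40–1.62) in all gated cells and 1.86 (1.73–2.01) in clustered fibroblasts. Gated endothelium-like cells of mgR also held Comp, at 49.3 CPM in 36 of 292 cells.

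Prg4 (chr1:150449412-150466165, minus strand) was concentrated in cells with many copies. It gave 4256 UMIs in 158 gated WT cells and 16627 UMIs in 536 gated mgR cells, and 1 mgR cell alone held 796 UMIs. At least 10 UMIs were held by 81 gated WT cells and 266 gated mgR cells. The direction of Prg4 depended on the cells and the summary taken. In all gated cells Prg4 measured 2255 CPM (2187–2323) in WT and 1924 CPM (1895–1954) in mgR, a ratio of 0.854 (0.825–0.883), whereas in clustered fibroblasts it measured 2423 CPM (2351–2497) and 2533 CPM (2494–2572), a ratio of 1.05 (1.01–1.08). After thinning to 2000 UMIs per cell the clustered ratio was 1.01 (0.953–1.08), and as a mean of per-cell values it was 0.937. At its 3′ end Prg4 overlaps an exon of Tpr on the opposite strand, and without strand the reads of the overlap could not be told apart.

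Cilp (chr9:65265180-65280605, plus strand) and Thbs4 (chr13:92751590-92794818, minus strand) came from very few cells. Cilp gave 65 UMIs in 14 gated WT cells and 352 UMIs in 70 gated mgR cells, and the ratio was 1.18 (0.906–1.57) in all gated cells and 1.44 (1.10–1.90) in clustered fibroblasts. Thbs4 gave 49 UMIs in 7 gated WT cells and 84 UMIs in 32 gated mgR cells. Its level was 26.0 CPM (19.2–34.3) in WT and 9.72 CPM (7.76–12.0) in mgR, a ratio of 0.375 (0.260–0.544). A single WT cell held 23 of the 49 UMIs, and the share of cells with a UMI ran the other way, at 1.98% in WT and 2.65% in mgR. All WT UMIs of Thbs4 in gated cells came from those 7 cells.

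The last 2 genes encode secreted proteins. Angptl7 (chr4:148495183-148500460, minus strand) belongs to the angiopoietin-like family and is best known from the cornea and the trabecular meshwork. It gave 164 UMIs in 52 gated WT cells (14.7%) and 1461 UMIs in 274 gated mgR cells (22.7%). Its level was 86.9 CPM (74.1–101) in WT and 169 CPM (160–178) in mgR, and in clustered fibroblasts 93.4 CPM (79.6–109) and 224 CPM (212–236). The ratio was 1.95 (1.65–2.30) in all gated cells and 2.40 (2.04–2.83) in clustered fibroblasts, and the intervals of the levels were apart in both sets.

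Angptl7 lies inside Mtor on the opposite strand, with no shared exon. Mtor measured 9.09 CPM (1.87–26.6) in WT clustered fibroblasts with an Angptl7 UMI and 11.9 CPM (6.94–19.1) in those without. In mgR it measured 8.63 CPM (5.11–13.6) with and 14.0 CPM (10.7–17.9) without. Cells with Angptl7 UMIs therefore did not have more Mtor UMIs.

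Fibin (chr2:110360917-110363183, minus strand), a secreted protein with a single annotated exon that is known from fin bud development, gave 459 UMIs in 97 gated WT cells and 2626 UMIs in 412 gated mgR cells. Its level was 243 CPM (221–266) in WT and 304 CPM (292–316) in mgR. In clustered fibroblasts it was 261 CPM (238–286) and 404 CPM (388–420). The ratio was 1.25 (1.13–1.38) in all gated cells and 1.55 (1.40–1.71) in clustered fibroblasts.

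**Figure D1:**
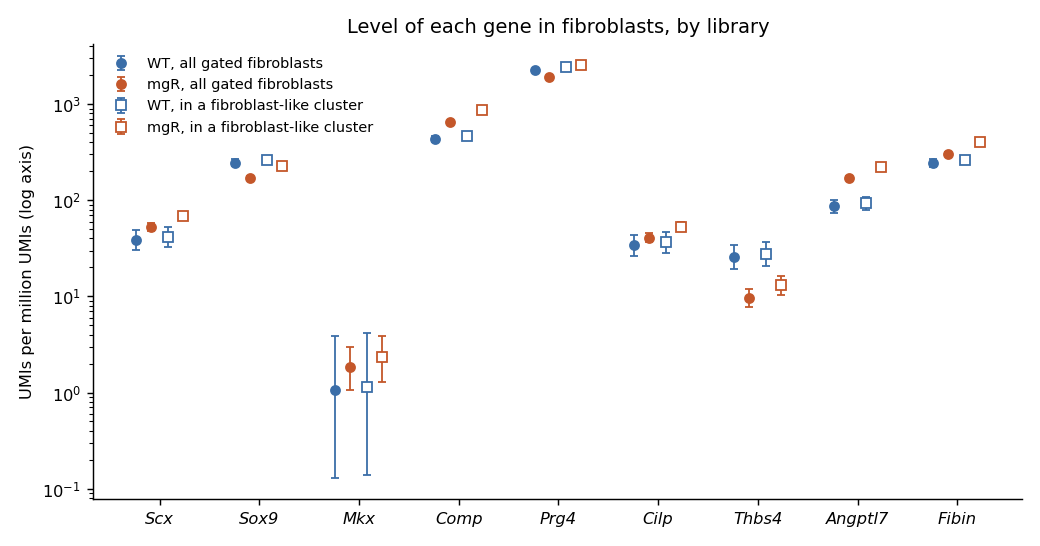
Level of 9 of the 10 genes, in CPM on a log axis, for all gated fibroblasts (filled circles) and for those in fibroblast-like clusters (open squares), with WT in blue and mgR in orange and bars for 95% Poisson intervals. In the clustered fibroblasts the mgR point lies above the WT point for Comp (864 against 464 CPM) and Angptl7 (224 against 93.4 CPM) and below it for Thbs4 (13 against 27.9 CPM), and Tnmd, at 0 UMIs, is not drawn.

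Counted over the set, 8 of the 10 genes had at least 20 UMIs in gated fibroblasts and passed that minimum. Of these 8 genes, 2 (Comp and Angptl7) were at least 1.5-fold higher in mgR and 1 (Thbs4) was at least 1.5-fold lower. Among all 12174 genes with that many UMIs, 13% were higher and 9.92% were lower by that fold. In clustered fibroblasts 4 genes (Scx, Comp, Angptl7 and Fibin) were higher and Thbs4 was lower, beside 9.89% higher and 9.80% lower of 11481 genes. The median log2 ratio of the 8 genes was 0.28 in all gated cells and 0.57 in clustered fibroblasts, beside −0.03 and −0.05 over all genes. The 10 genes were chosen with these ratios in view, so the excess over all genes is no result about them. In the gated cells the summed macrophage markers were 212 CPM in WT and 520 CPM in mgR. Without gated cells with at least 3 UMIs of leukocyte genes, the ratio was 1.45 for Comp, 1.88 for Angptl7 and 0.401 for Thbs4. The part of macrophage RNA in the ratios was not tested further.

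The ratio of several genes differed between Xist and Y-linked cells. Among clustered fibroblasts with Xist UMIs, the mgR over WT ratio was 2.84 (2.41–3.36) for Comp, 1.86 (1.73–2.01) for Prg4 and 3.91 (2.72–5.82) for Angptl7. Among those with Y-linked UMIs it was 1.23 (1.09–1.38) for Comp, 0.687 (0.647–0.728) for Prg4 and 1.13 (0.905–1.43) for Angptl7. Prg4 thus lay above 1 in Xist cells and below 1 in Y-linked cells, and the intervals of Comp and Angptl7 did not overlap between the sexes.

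The sex split showed WT cells with Xist UMIs to be the lowest of the 4 groups for Prg4, at 1536 CPM, beside 2476 CPM in WT Y-linked cells, 2861 CPM in mgR Xist cells and 1700 CPM in mgR Y-linked cells. The same group was lowest for Angptl7, at 63.2 CPM, beside 143, 247 and 162 CPM in the same order. For Comp it was also lowest, at 320 CPM, beside 525, 908 and 643 CPM. These WT values came from 83 Xist cells and 145 Y-linked cells.

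Scx and Fibin lay on the same side in both sexes. The ratio of Scx was 1.98 (1.23–3.38) in Xist cells and 1.46 (0.963–2.27) in Y-linked cells, and that of Fibin was 1.94 (1.60–2.39) and 1.29 (1.09–1.54). Cilp measured 2.96 (1.58–6.25) and 0.784 (0.492–1.26), from 10 and 33 WT UMIs. For Thbs4 the 83 WT Xist cells had 0 UMIs, which allows up to 3.61% of cells and 6.32 CPM, whereas the 539 mgR Xist cells had 71 UMIs, or 17.2 CPM. In Y-linked cells Thbs4 went the other way, with 31 UMIs in WT, 6 UMIs in mgR and a ratio of 0.107 (0.0363–0.259). All 31 of these WT UMIs lay in the cluster numbered 3 below. There a UMI was held by 5.56% of 54 WT and 5.13% of 78 mgR Y-linked cells. The Thbs4 ratio thus rests on very few cells, whose shares were alike.

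**Figure D2:**
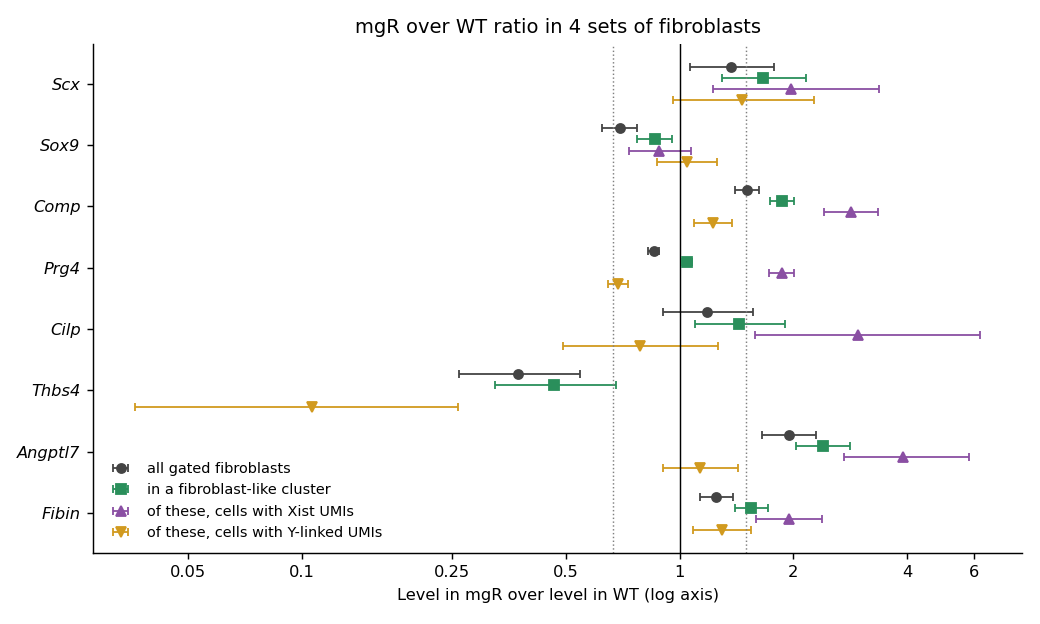
Ratio of the mgR level to the WT level for 8 genes, on a log axis, in all gated fibroblasts, in those of fibroblast-like clusters and in the Xist and Y-linked cells among these, with 95% conditional binomial intervals, a solid line at 1 and dotted lines at 1.5-fold. The Xist and Y-linked points of Prg4 lie on opposite sides of 1 (1.86 and 0.687), whereas those of Scx both lie above it (1.98 and 1.46), and Thbs4 in Xist cells has no point because WT was at 0 UMIs.

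In the clustering of all cells, fibroblasts fell into a pair of clusters. The 10 genes, which had been left out of the clustering, were unevenly spread over them. Cluster 1 was led by Tnfaip6, Mmp3, Ptx3 and Igfbp3 and held 170 WT and 506 mgR clustered fibroblasts. Cluster 3 was led, beside 4 of the 10 genes, by Fmod, Wif1, Ecrg4, Prelp, Abi3bp and Mgp and held 160 WT and 391 mgR clustered fibroblasts. Since genes that vary with the 10 genes shaped these clusters, the contrast between clusters is a description. Cluster 3 held 69.9% of WT and 77.1% of mgR Scx UMIs, 66.9% and 87.7% of Prg4 UMIs, and 76.7% and 79.4% of Fibin UMIs. Sox9 was spread evenly, with 47.4% of WT and 42.4% of mgR UMIs in cluster 3.

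Within cluster 3 Comp, Angptl7, Prg4, Scx and Fibin were higher in mgR. Comp measured 658 CPM in WT and 1582 CPM in mgR, a ratio of 2.40 (2.19–2.64). Angptl7 measured 112 and 434 CPM, a ratio of 3.88 (3.11–4.89), and the share of cells with a UMI was 16.9% and 43.2%. Prg4 measured 3751 and 5238 CPM, a ratio of 1.40 (1.34–1.45), and Scx 67.2 and 125 CPM, a ratio of 1.87 (1.39–2.56). Fibin measured 464 and 756 CPM, a ratio of 1.63 (1.46–1.83), and Cilp had a ratio of 1.33 (0.999–1.80). Sox9 and Thbs4 were lower, Sox9 at 288 and 226 CPM, a ratio of 0.784 (0.671–0.919), and Thbs4 at 64.5 and 25.9 CPM, a ratio of 0.402 (0.276–0.591). By sex, Sox9 stood at 0.808 (0.615–1.08) in Xist cells and 1.29 (0.950–1.76) in Y-linked cells of this cluster, and Prg4 at 1.98 (1.82–2.14) and 1.08 (0.999–1.16). Scx stood at 2.46 (1.38–4.82) and 1.40 (0.830–2.44) in the same order, and Fibin at 2.73 (2.12–3.57) and 1.26 (1.04–1.53).

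Cluster 1 gave a different picture. Prg4 measured 1412 CPM in WT and 542 CPM in mgR, a ratio of 0.384 (0.358–0.411), although the share of cells with a Prg4 UMI was 35.3% in WT and 39.5% in mgR. Comp measured 316 and 336 CPM (ratio 1.06, 0.939–1.21), Angptl7 79.2 and 68.9 CPM (0.869, 0.673–1.13) and Scx 22.1 and 27.4 CPM (1.24, 0.779–2.07), none beyond counting error over all cells of the cluster. Fibin was higher in mgR here too, at 107 and 144 CPM (1.35, 1.09–1.67). By sex its ratio was 0.908 (0.657–1.28) in Xist cells and 1.48 (0.982–2.28) in Y-linked cells. Cilp, from 7 and 65 UMIs, had a ratio of 2.49 (1.14–6.44). The Comp ratio in cluster 1 was 4.30 (2.79–6.99) in Xist cells and 0.478 (0.391–0.583) in Y-linked cells, and that of Angptl7 was 1.59 (0.910–3.05) and 0.283 (0.179–0.440), so Comp went opposite ways in the sexes and Angptl7 was lower in the Y-linked cells of mgR. Among the Y-linked cells of cluster 1 Prg4 was higher in WT, at 1879 CPM in 91 WT and 541 CPM in 135 mgR cells. Among its Xist cells Prg4 was 333 CPM in 39 WT and 537 CPM in 296 mgR cells. Cells of the cluster assigned to neither group were left out of this split. In cluster 3 the Y-linked cells had an Angptl7 ratio of 2.13 (1.57–2.92) and a Comp ratio of 2.01 (1.73–2.36), so in this cluster both genes were higher in mgR cells of both sexes. Clustering the gated cells alone split them more finely. In the group led by Clec3b and Smoc2, Comp measured 448 CPM (381–523) in WT and 553 CPM (516–593) in mgR. In the group led by Tnfaip6 and Ptx3 it measured 288 CPM (247–334) and 183 CPM (166–202). Angptl7 measured 178 and 116 CPM in the former group and 45.3 and 30.5 CPM in the latter.

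**Figure D3:**
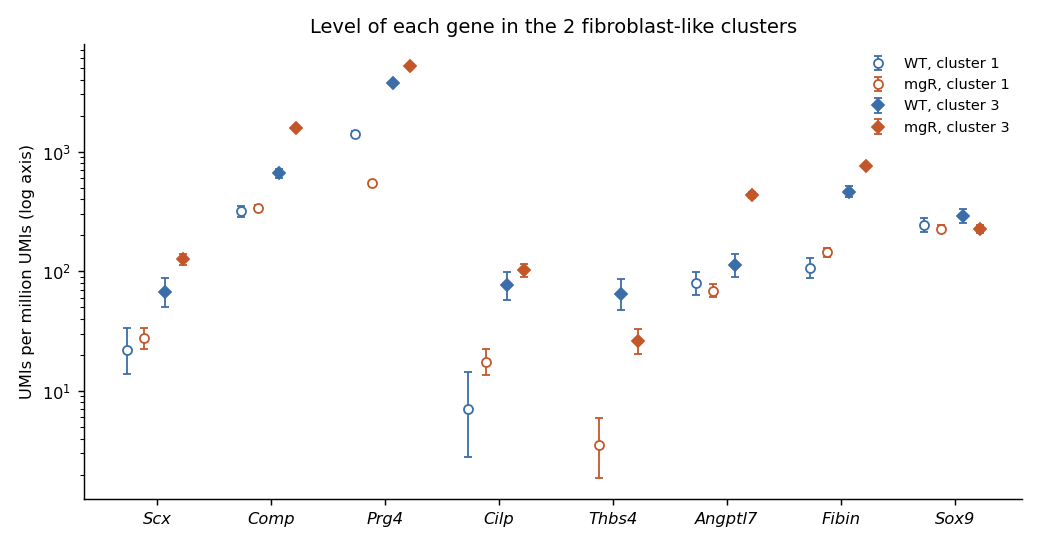
Level of 8 of the genes, in CPM on a log axis, in the fibroblasts of cluster 1 (open circles) and cluster 3 (filled diamonds), with WT in blue and mgR in orange and 95% Poisson intervals. Angptl7 in mgR is set apart in cluster 3 (434 CPM, against 112 CPM in WT) and not in cluster 1 (68.9 against 79.2 CPM), Sox9 in cluster 3 lies at 288 CPM in WT and 226 CPM in mgR, and Thbs4 in WT cluster 1, at 0 UMIs, is not drawn.

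Detection of several genes in the same cell was examined after each cell was thinned to 2000 UMIs, with shallower cells left out and values averaged over 100 random draws. In the clustered fibroblasts this kept 300 WT and 864 mgR cells. The share of cells with a UMI of at least 3 of the 10 genes was 19.7% (15.3–24.6) for WT and 28.0% (25.1–31.2) for mgR, beside 14.2% and 24.0% from the product of the single shares. At least 5 genes were present in 2.67% (1.16–5.19) of WT and 6.96% (5.35–8.86) of mgR cells, beside 0.264% and 0.879% from the product. In all gated cells the share with at least 3 genes was 18.3% (14.2–22.9) in WT and 20.8% (18.5–23.2) in mgR, intervals that overlap. Among gated Y-linked cells it was 19.3% (13.1–26.7) in WT and 17.1% (12.8–22.2) in mgR, and among gated Xist cells 13.4% (7.02–22.4) and 23.5% (20.4–26.8). Without thinning, the most genes found in 1 cell were 8 of 10 in each library.

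**Figure D4:**
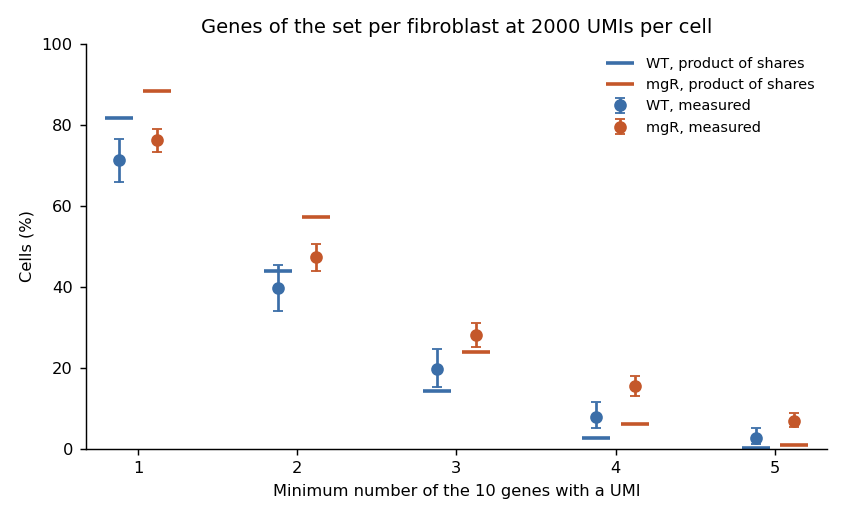
Share of clustered fibroblasts, in percent, with at least 1 to 5 of the 10 genes at 2000 UMIs per cell, as measured (points with 95% Clopper-Pearson intervals) and as the product of the single shares gives it (dashes), for WT in blue and mgR in orange. The measured share lies below the product for at least 1 gene (71.4% against 81.7% in WT) and above it for at least 5 genes (6.96% against 0.879% in mgR).

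In the clustered fibroblasts the matrix genes were found in the same cells more often than the product of their shares. Comp and Prg4 were both present in 53.5 WT cells against 32.4 from the product, a ratio of 1.65 (1.24–2.16), and in 222 mgR cells against 148, a ratio of 1.5 (1.31–1.71). Prg4 and Fibin gave ratios of 1.74 (1.28–2.32) in WT and 1.62 (1.40–1.87) in mgR. Angptl7 and Fibin gave 2.19 (1.18–3.72) and 1.98 (1.59–2.44). Cilp, though rare, gave the 2 highest values in mgR among combinations with at least 5 cells from the product, with a ratio of 2.82 (1.73–4.34) with Angptl7 and 2.71 (1.83–3.85) with Fibin.

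Scx went with the matrix genes in the clustered fibroblasts. In mgR, 86.6% of Scx-positive cells held a Prg4 UMI beside 44.7% of Scx-negative cells, and 60.4% held a Fibin UMI beside 25.6%. The ratio to the product was 1.91 (1.43–2.50) for Scx with Comp and 2.18 (1.49–3.08) for Scx with Angptl7. In WT, with 18.1 Scx-positive cells after thinning, 72.3% of these held a Prg4 UMI beside 40.3% of the others.

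Among the clustered fibroblasts Sox9 did not do so beyond counting error. In mgR its ratio to the product was 0.973 (0.616–1.46) with Scx, 0.937 (0.749–1.16) with Comp, 0.997 (0.830–1.19) with Prg4 and 0.851 (0.609–1.16) with Angptl7. In WT it was 0.739 (0.218–1.82) with Scx and 0.994 (0.715–1.35) with Prg4. Every one of these intervals includes 1. The count of cells with both Scx and Sox9 in mgR ranged from 11 to 36 over the 100 draws, around a mean of 23.0 and a product of 23.6. Without thinning the ratio of Scx with Sox9 was 1.09 (0.906–1.31) in mgR, from 118 cells with both genes. Within the clustered fibroblasts the 2 transcription factors were thus neither joined nor separated beyond counting error. In all gated cells of mgR, each of the 21 combinations that could be assessed lay above the product, those with Sox9 among them. In the clustered fibroblasts of mgR this held for 16 of 22 combinations.

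**Figure D5:**
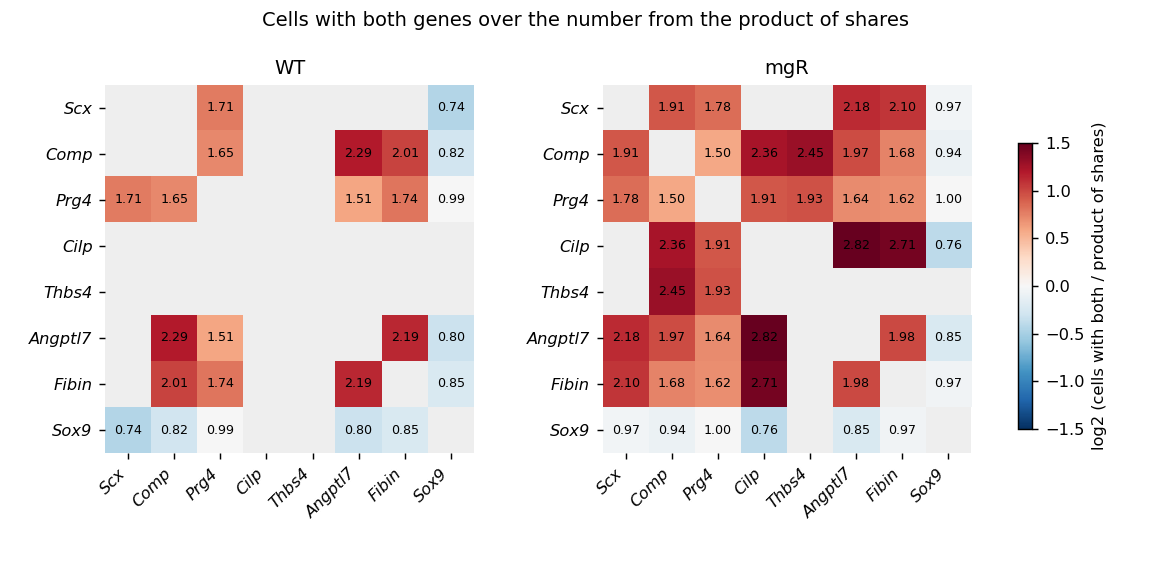
Cells with both genes divided by the number from the product of their shares, for each of the gene combinations in clustered fibroblasts at 2000 UMIs per cell, in WT (left) and mgR (right), with the colour on a log2 scale and grey where the product gave fewer than 5 cells. Combinations of Scx, Comp, Prg4, Cilp, Thbs4, Angptl7 and Fibin lie between 1.5 and 2.82 in mgR, whereas the column of Sox9 lies between 0.761 and 0.997.

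For the 6 of the 10 genes with a UMI in at least 5% of the gated cells of both libraries (Scx, Sox9, Comp, Prg4, Angptl7 and Fibin), the genes with the most similar pattern over single cells were sought among 8139 genes that passed the same minimum. Correlations were taken within each library over 353 WT and 1209 mgR gated cells, on the log of 1 plus UMIs per 10000. The cells were not thinned to equal depth here. Fmod (fibromodulin), a small proteoglycan of tendon collagen, came first for Scx (r = 0.44 in WT and 0.50 in mgR), Comp (0.47 and 0.61) and Angptl7 (0.33 and 0.59). Fibin came first for Prg4 and Prg4 for Fibin (0.50 and 0.64). The next were Fibin and Prg4 for Scx, Ecrg4 and Prg4 for Comp, Prelp and Fxyd6 for Prg4, Comp and Ecrg4 for Angptl7, and Fmod and Prelp for Fibin.

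The likeness of Sox9 changed with the cells taken. Over all gated cells its nearest genes were Dpt (0.22 in WT and 0.42 in mgR), Gsn (0.21 and 0.39) and Dbi (0.27 and 0.32). Dpt and Gsn are fibroblast genes. In clustered fibroblasts they were Sat1 (0.32 and 0.07), Jun (0.21 and 0.15) and Fos (0.20 and 0.16), immediate early genes in the case of Jun and Fos. Fmod stayed first for Scx, Comp and Angptl7 in the clustered fibroblasts, at 0.48, 0.59 and 0.57 in mgR.

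Outside the fibroblasts most of the 10 genes were rare, apart from Prg4 in a few monocyte-like cells and Sox9 in melanocyte-like cells, given below. Of the 9 detected genes, 8 had their highest level in the clustered fibroblasts of both libraries, a number that became 7 after thinning to 2000 UMIs. Without thinning the exception was Sox9, which stood at 239 CPM (103–471), from 8 UMIs, in the 18 fibroblast-like mgR cells outside the gate and at 226 CPM in the clustered fibroblasts. Macrophage-like cells held Prg4 in 7 of 171 WT cells (4.09%, median depth 5720 UMIs) and 10 of 667 mgR cells (1.5%, 7115 UMIs), with 1 UMI each, beside 47.9% and 57.5% of clustered fibroblasts at median depths of 5221 and 6947 UMIs. For Comp the macrophage-like share was 1.5% in mgR and for Sox9 0.300%.

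Endothelium-like cells were the main other holders of Comp. Those inside the gate had Comp in 12.3% of 292 mgR cells and 21.7% of 23 WT cells, and those outside it in 4.47% of 179 mgR cells, at 12.9 CPM (6.67–22.6). Scx was present in 2.40% and 2.79% of the gated and ungated endothelium-like cells of mgR, beside 0.450% of mgR macrophage-like cells. In WT it was present in 0 of 59 endothelium-like cells and in 2.34% of macrophage-like cells, so no level above background is read from these shares. Sox9 was present in 6 of 24 melanocyte-like WT cells, with 14 UMIs and 220 CPM (120–370), a level near that of the WT fibroblasts. The 8 melanocyte-like mgR cells had 1 UMI.

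Prg4 was also found in a few leukocytes. Of 27 monocyte-like mgR cells outside the gate, 6 held 404 Prg4 UMIs between them, from 42 to 96 each, at 2395 CPM (2167–2640) for the class. These 6 cells had 0 or 1 gate UMIs, 0 UMIs of the other 9 genes and 225 to 845 UMIs over 6 leukocyte genes. Their cluster was led by Slpi, Saa3, Serpinb2 and Chil3, with F5 and F10 among its first 10 genes. Scrublet marked none of the 6 as a doublet. The WT library had no Prg4 UMI in its cells of this class.

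Other genes of tendon and cartilage were followed in 5 lists, whose genes were chosen with earlier results of these data known. Of all genes with at least 20 UMIs, 13% were higher and 9.92% were lower by 1.5-fold in gated mgR cells. In clustered fibroblasts these shares were 9.89% and 9.80%. The counts of the lists were not tested against these shares, so they are a description. Of 21 tendon matrix genes, all with at least 20 UMIs, 6 were at least 1.5-fold higher and 1 lower in gated mgR cells. Of the 6 higher, 5 were beyond counting error, and Kera was counted among them on 0 WT and 21 mgR UMIs. Bgn, Lum, Col3a1 (part of the gate) and Prelp had the most UMIs, and their ratios in clustered fibroblasts were 0.983, 1.01, 1.14 and 1.13. Aspn (asporin) had the highest ratio among genes with at least 50 UMIs, 2.34 in gated cells (50.3 and 118 CPM) and 2.90 (2.35–3.61) in clustered fibroblasts. Tnc followed at 2.03, from 7 and 65 UMIs. The protease Htra3 was the lowest, at 0.517 (0.483–0.553), and remained below 1 in clustered fibroblasts at 0.632. Col6a3 stood at 0.668 in gated cells and 0.803 (0.711–0.910) in clustered fibroblasts.

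Of the collagens in the cartilage list, the main collagen of hyaline cartilage was near 0. Col2a1 had 0 UMIs in WT, which allows up to 1.59 CPM, and 1 UMI in mgR gated cells, and Acan (aggrecan) had 3 and 13 UMIs. The minor cartilage collagens were detected at low level, with 12 and 102 UMIs of Col11a1, 23 and 110 of Col11a2, 3 and 28 of Col9a1, and 4 and 19 of Col9a3. Of 22 genes, 13 had at least 20 UMIs, and 4 of these were higher and 1 lower by 1.5-fold. Of the 4 higher, 3 were beyond counting error. Chad (chondroadherin), a cartilage leucine-rich repeat protein, measured 73.1 CPM in WT and 217 CPM in mgR, a ratio of 2.97 (2.50–3.56), and came from 3.97% and 8.93% of cells. Cilp2 had a ratio of 1.93 (1.20–3.29). Hapln1 measured 49.3 and 71.2 CPM in gated cells but 14.8 and 15.3 CPM in clustered fibroblasts, and it was a leading gene of an endothelium-like cluster. Matn2, at 0.660, and Chadl, at 0.699 (0.418–1.22), had the lowest ratios in gated cells among genes with at least 50 UMIs, and Vit stood at 0.717. In clustered fibroblasts Matn2 stood at 0.803 (0.705–0.917), Chadl at 0.874 (0.515–1.55) and Vit at 0.844 (0.716–0.998).

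Of 20 tendon and cartilage regulators, 16 had at least 20 UMIs, with 2 higher and 2 lower in gated cells, and in clustered fibroblasts 0 higher and 2 lower. Of the 2 lower in clustered fibroblasts, 1 was beyond counting error. The higher ones were Id1, a target of bone morphogenetic proteins, at 1.84 in gated cells and 1.25 (1.09–1.43) in clustered fibroblasts, and Runx3, at 2.73 and 1.20 (0.443–4.05). The immediate early gene Egr1 measured 470 CPM in WT and 634 CPM in mgR. Nfatc1 stood at 1.26 in gated cells and at 0.917 (0.757–1.12) in clustered fibroblasts. Wwp2 and Trps1 stood at 0.768 and 0.845 in gated cells and at 0.883 (0.653–1.21) and 0.978 (0.853–1.12) in clustered fibroblasts.

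Among 20 growth factors and antagonists, 14 had at least 20 UMIs in gated cells, with 3 higher and 1 lower. Pthlh stood at 2.20 in gated cells but at 0.525 (0.266–1.08) in clustered fibroblasts, and Fgfr3 at 1.63 and 0.626 (0.363–1.12). Both were above 1 in the gate and below 1, within counting error, in clustered fibroblasts, and Pthlh was a leading gene of an endothelium-like cluster. Bmp5 was lower in both sets, at 0.364 and 0.454 (0.295–0.706). Dkk3, the gene with the most UMIs, stood at 0.802 and 0.974, Sfrp2 at 1.38 and 1.70 (1.52–1.90), Frzb at 0.945 and 1.16, and Fgf2 at 0.817 and 0.984.

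Of 15 genes of hypertrophic cartilage and bone, 6, among them Col10a1, Ibsp and Sp7, had 0 UMIs and 6 had at least 20 UMIs. Mgp (matrix Gla protein), an inhibitor of calcification and the leading gene of this list by UMIs, measured 15048 CPM in WT and 20180 CPM in mgR, and its ratio in clustered fibroblasts was 1.61 (1.59–1.63). Sparc stood at 1.06 and Ank at 1.07 in gated cells, and at 1.24 (1.18–1.29) and 1.11 (0.820–1.52) in clustered fibroblasts. Enpp1, which makes the mineralization inhibitor pyrophosphate, had a ratio of 1.75 (1.17–2.71) and Spp1 (osteopontin) one of 0.445 (0.339–0.589), from 3.12% of WT and 4.22% of mgR cells. Alpl, the phosphatase that removes pyrophosphate, stood at 0.867 (0.585–1.32) in gated cells and 1.03 (0.692–1.57) in clustered fibroblasts.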

How the data were processed

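Mitral valve cells of 1 WT and 1 mgR library were analysed. The deposited values were UMI counts per gene and barcode, which the authors made with Cell Ranger 7.1.0 on mm10 from 10x 3′ v3 libraries, as per the labels. Cells with 200 to 5000 genes and at most 10% mitochondrial UMIs were kept, as in the study, which left 4577647 WT and 26678452 mgR UMIs. UMIs were summed over cells and given per 1000000 UMIs (CPM). Cells were clustered with both libraries together in scanpy 1.11.5 (2000 variable genes without the 10 genes, 50 components, 20 neighbours, Leiden resolution 0.8). Gated fibroblasts were also clustered alone, at resolution 0.5. A cluster of all cells was named from at least 3 markers, and 2 clusters stayed unnamed. Cell types may differ from those of the study, since their names were rebuilt here. Doublets were kept. Scrublet, run per library, marked 1.03% of WT and 1.51% of mgR cells, which 1 alternative excluded. A call was a ratio past 1.5-fold in genes with at least 20 UMIs. With 1 library per group no test was made.

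Thinned values are means over 100 random draws to 2000 UMIs per cell, and their intervals were taken from the mean number of cells. This replaced a single draw, which had given too few cells with both Scx and Sox9 to be typical of other draws. Interval and thinning code was tested on simulated data. Named genes were the 10 genes, for each the 3 most correlated genes, and of each list the 4 with the most UMIs and the 2 highest and 2 lowest ratios with at least 50 UMIs. Acan, Col2a1, the minor cartilage collagens, Col10a1, Ibsp and Sp7 were named after their values were seen. Feature identifiers were matched to GENCODE M21 (32158 of 32285), and positions are of GRCm38, which is mm10. The 10 genes, the lists and the markers were chosen with earlier results of these data known. Alternatives were gates of 5 and 20 UMIs, a mitochondrial limit of 5%, other scaling, thinning, cell subsets and minimum UMIs.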

Additional observations from a re-analysis of the deposited data

Results flagged for a closer look

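Prg4 and Thbs4 differed in direction between the sexes of the cells, and the difference itself was not tested. In all gated cells the mgR over WT ratio of Prg4 was 1.55 in Xist cells and 0.574 in Y-linked cells, and in clustered fibroblasts it was 1.86 and 0.687. For Thbs4 the Y-linked ratio was 0.0887 in all gated cells and 0.107 in clustered fibroblasts, whereas the Xist cells of WT had 0 UMIs. Only 7 gated WT cells held a Thbs4 UMI, so its direction by sex rests on very few cells. Cells of 1 library share their source, and which mice gave the Xist and the Y-linked cells is not in the labels, so sex, animal and library cannot be told apart.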

How the results depend on the processing

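With 1 library per genotype, no value has a replicate check, sex is unevenly split between the libraries, and rare genes rest on few cells. Of 147 log2 ratios of single genes under alternatives, 87 stayed within their counting interval, 51 moved outside it with the same sign and 9 changed sign, and of 68 counts and shares 39 kept and 29 moved. Ratios with 0 UMIs in a library have no log2 value and are not among the 147. Thbs4, lower in mgR in the main analysis, had 0 WT and 71 mgR UMIs in gated Xist cells (lower limit of the ratio 1.77). Without the 10 top cells it had 0 and 27 UMIs. Only 7 gated WT cells held a Thbs4 UMI, against 32 in mgR, so this setting had to leave WT at 0. It therefore gives no direction for Thbs4. Among the 147, log2 ratios that changed sign were those of Angptl7 in Y-linked cells (−0.083), of Cilp in Y-linked cells (−0.62) and Y-linked clustered fibroblasts (−0.35), of Sox9 in Y-linked clustered fibroblasts (0.063), and of Prg4 in Xist cells (0.64), in clustered fibroblasts (0.064), and among these in Xist cells (0.90), after thinning (0.020) and without Scrublet-marked cells (0.078).

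The number of the 10 genes at least 1.5-fold higher was 2 and became 1 with a gate of 5 UMIs, a mitochondrial limit of 5%, thinning, or without Scrublet-marked cells or cells with leukocyte UMIs. It was 4 in clustered fibroblasts (4 also without Scrublet-marked cells, 5 when thinned or as a mean of per-cell values). In Xist cells of both sets it was 7, in Y-linked cells of both sets 0, and without the 10 top cells 6. The number lower, 1, became 0 in Xist cells of both sets and without the 10 top cells, and 3 in Y-linked gated cells. The 10 top cells were a larger part of the positive gated cells in WT, for instance of Scx (40 WT and 196 mgR cells). Leaving them out thus took more from WT than from mgR. For the sex split and the 10 top cells no share over all genes is given. The share of gated cells with at least 3 genes was 9.82% in WT and 13.6% in mgR at 1000 UMIs, 31.2% and 36.0% without thinning, 13.4% and 23.5% in Xist cells, 19.3% and 17.1% in Y-linked cells and 28.0% in mgR clustered fibroblasts. Gene combinations above the product, of those that could be assessed, numbered 14 of 17 in WT without thinning and 2 of 3 in WT Xist cells (8 of 12 in the main analysis), and 7 of 10 in mgR Y-linked cells (21 of 21). The cause of these shifts was not tested. Restricting Xist, Y-linked, thinned and other values to clustered fibroblasts, splitting by cluster and averaging 100 draws were chosen after seeing the data. Scaling by the median gene ratio shifted log2 ratios by 0.02. No paired analysis was possible because there was 1 library per group and no test.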

Other observations

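Barcodes outside the filters also held UMIs of these genes. The 229 WT barcodes left out had 107 CPM (85.5–132) of Prg4 and 54.7 CPM (39.8–73.4) of Comp, and the 364 mgR barcodes had 70.3 CPM (57.6–84.8) and 42.3 CPM (32.6–53.9). The 20 gated mgR cells in neither a fibroblast-like nor an endothelium-like cluster had a median of 15782 UMIs, with both Xist and Y-linked UMIs in 30.0% of them, beside 1.23% of mgR clustered fibroblasts, and held Prg4 at 651 CPM (563–749) and Sox9 at 53.2 CPM (30.4–86.3). Angptl7 was present in 28 of 811 mgR cells (3.45%) of an unnamed cluster led by Lyve1, Cd209f and Vsig4, at 4.56 CPM (3.14–6.40), a level near that of 1 UMI per cell with any.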
